A study of Mus musculus with 16 samples.

Results

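The neurotrophin ligands Bdnf and Ntf3 and 4 receptors of this family, Ntrk2, Ntrk3, Ngfr and Sort1, were followed through single cells of the mouse thoracic aorta. The members were picked by symbol, 6 of 31055 features in the count matrices, and they were proposed with their pattern in these cells already known, in particular the higher Bdnf of vascular smooth muscle cells (VSMCs) after Smad3 deletion. Neurotrophins are secreted growth factors, made as proforms that proteases cleave, and are best known for keeping neurons alive and shaping synapses. BDNF acts through the receptor tyrosine kinase TrkB (Ntrk2) and NT-3 (Ntf3) through TrkC (Ntrk3), whereas the p75 receptor (Ngfr) binds all neurotrophins and, with sortilin (Sort1), their proforms. In the vessel wall, neurotrophins and their receptors have been described in smooth muscle, endothelium and the nerves that run in the adventitia.

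Each of the 16 droplet libraries (10x 3' chemistry, unique molecular identifiers, UMIs) came from the thoracic aorta of 1 male mouse on the 129S6/SvEv strain, dissected from the root to the left subclavian branch and sorted for living nucleated cells. All mice carried the tamoxifen-inducible Myh11-CreER transgene, which sits on the Y chromosome and is driven in smooth muscle, and all received tamoxifen from 6 weeks of age, so the Smad3+/+ controls differ from Smad3SmKO mice in carrying no floxed Smad3 alleles. Aortas were taken at 10 weeks post-deletion (2 Smad3+/+ and 2 Smad3SmKO, all in batch 4 and digested for 60 min) or 18 weeks post-deletion (5 Smad3+/+ and 7 Smad3SmKO). The 18-week libraries were digested for 30 min (batches 1, 2 and 3) or 60 min (batches 5 and 6, batch 5 with Smad3SmKO only), and some mice also carried an EGFP-L10a tracer recombined by the same Cre.

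The matrices held 66349 barcodes and 508775009 UMIs, 12539539 to 52843031 UMIs per library, and 50858 cells were kept (631 to 6497 per library, with median depths of 4528 to 21884 UMIs). Cells were assigned by gates. VSMCs held at least 5 UMIs of Myh11 and more Myh11 than Dcn (8950 cells, 22 to 1706 per library), and fibroblasts at least 5 of Dcn and more Dcn than Myh11 (36066 cells, 196 to 5505). Endothelium held at least 2 UMIs of Pecam1 and Cdh5 together (3303 cells), and leukocytes at least 2 of Ptprc and Tyrobp (3357 cells). The 6 VSMC markers summed to 55852 CPM in VSMCs (UMIs of a gene per 1000000 UMIs of the summed cells) and 2008 in fibroblasts. The endothelial gate was mixed, because 2077 of its cells also met another gate. Only 315 barcodes occurred in more than 1 library, at most 0.363% of the smaller library of a pair.

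Labels were checked as far as the counts allow. Smad3 averaged 7.44 ± 2.79 CPM (SD, n = 5) in VSMCs of Smad3+/+ at 18 weeks and 9.32 ± 4.37 (n = 7) in libraries labelled Smad3SmKO. At 10 weeks it was 5.04 ± 0.50 (n = 2) and 6.63 ± 2.05 (n = 2), so the targeted gene was not lower under the Smad3SmKO label at either time. Counts at the 3' end do not separate the deleted part of the gene, so Smad3 counts gave no check of the genotype labels. The tracer label could be checked, and 4 libraries went against it. The 2 Smad3SmKO libraries of 10 weeks, labelled without tracer, held GFP UMIs in VSMCs (227 in the first), and Smad3+/+ replicates 4 and 5 of 18 weeks, labelled with it, held 0. The libraries are called by their labels throughout, and the tested differences that rest on these 4 are also given without them; class and gate levels are given over all libraries.

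The members lie on 6 chromosomes (GRCm38, which is mm10, GENCODE vM21). Bdnf (ENSMUSG00000048482) spans chromosome 2, 109674700 to 109727007, on the plus strand and is overlapped by the antisense gene Gm45346. Ntf3 (ENSMUSG00000049107) lies on chromosome 6 from 126101412 to 126166910 on the minus strand. Ntrk2 (ENSMUSG00000055254) lies on chromosome 13 from 58806569 to 59133970 on the plus strand, and Ntrk3 (ENSMUSG00000059146) on chromosome 7 from 78175959 to 78738012 on the minus strand. Ngfr (ENSMUSG00000000120) spans chromosome 11, 95568818 to 95587735, on the minus strand, and Sort1 (ENSMUSG00000068747) chromosome 3, 108284082 to 108361511, on the plus strand. Ntrk2, Ntrk3 and Sort1 also have antisense genes within their spans.

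Bdnf is transcribed from several alternative promoters, one of which is known for its response to neuronal activity through a cAMP-response-like element. Because the genotype comparison in VSMCs turns on Bdnf, 1 of its 7 RefSeq promoter windows is shown, the one that holds the letters TCACGTCA of that element (in capitals). It is the 250 bases before the start site, chr2:109692186-109692435, plus strand, GRCm38.p6, with the element beginning at base 213.
Bdnf promoter: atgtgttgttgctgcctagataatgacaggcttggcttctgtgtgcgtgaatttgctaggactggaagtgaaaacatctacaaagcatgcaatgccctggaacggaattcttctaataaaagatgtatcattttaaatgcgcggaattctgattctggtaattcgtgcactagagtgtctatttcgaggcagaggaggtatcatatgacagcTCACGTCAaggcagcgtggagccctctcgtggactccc
Searched on both strands, TCACGTCA was in 1 of the 7 Bdnf windows and in 0.350% of all 32851 windows. The full cAMP response element TGACGTCA was in 0 of the 7 Bdnf windows and in 1.55% of all. The short Smad-binding letters CAGACA were in 1 Bdnf window and in 17.1% of all, and the palindrome GTCTAGAC was in none of the Bdnf windows and in 0.167% of all. The E-box CACGTG was in no Bdnf window, in a window of Ntf3 and in 6.02% of all. These matches are letters only, and 3' counts do not tell which promoter a Bdnf transcript came from.

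The cell types that held the members differed from gene to gene. Over the 16 libraries Bdnf was at 21.7, 46.9 and 87.9 CPM in VSMC sums (lowest, median, highest), with a mean of 52.2 ± 19.3, and at 6.70, 20.1 and 51.1 CPM in fibroblasts, with a mean of 24.9 ± 14.6. VSMCs were above fibroblasts in 16 of 16 libraries. The endothelial gate lay between them at 38.3 ± 26.9 CPM, below VSMCs in 12 of 16 libraries, but its cells that met no other gate held 7.79 CPM in the pooled sum. Leukocytes were lowest for Bdnf (3.68 ± 5.08, and 0.385 pooled in cells of no other gate). A Bdnf UMI was found in 27.4% of VSMCs (median 7954 UMIs a cell) and 9.29% of fibroblasts (median 8459). It was found in 1.79% of all leukocytes (median 5996) and in 0.272% of the 2946 that met no other gate (median 5496.5). With every cell thinned to 2000 UMIs these shares were 8.28%, 3.23%, 0.418% and 0.0666%. Fibroblasts, being the more numerous, nevertheless contributed 65.6% of all 13691 Bdnf UMIs.

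Ntf3, the other ligand, was also highest in VSMCs. Its VSMC level ran from 49.8 to 115 CPM with a median of 92.9 (mean 89.4 ± 18.3, n = 16), and its fibroblast level from 17.0 to 144 with a median of 40.2 (mean 50.0 ± 34.3). VSMCs were above fibroblasts in 14 of 16 libraries, and the fibroblast and endothelial levels (53.4 ± 29.2) overlapped widely. Unlike Bdnf, Ntf3 stayed at 27.2 CPM in the single-gate endothelial sum, and 52.0% of VSMCs and 20.9% of fibroblasts held a UMI of it. The TrkC receptor gene Ntrk3 had the same order, 47.9 ± 24.2 CPM in VSMCs (31.3, 40.8 and 130) and 24.1 ± 15.9 in fibroblasts (4.79, 19.8 and 74.4), with VSMCs higher in 15 of 16 libraries. Single-gate endothelium held 1.74 CPM of Ntrk3.

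Ntrk2, which encodes TrkB, had the opposite order. It averaged 26.9 ± 11.1 CPM in fibroblasts (6.94, 29.3 and 51.7) and 14.1 ± 14.2 in VSMCs (2.97, 8.30 and 53.3), and fibroblasts were higher in 14 of 16 libraries. Its VSMC and endothelial levels (11.8 ± 6.20) were not separated, with VSMCs higher in 7 libraries and the endothelial gate in 9. Fibroblasts held 92.7% of all Ntrk2 UMIs. The ligand Bdnf and this receptor were thus highest in different gates. Within fibroblasts the 3352 cells with a Bdnf UMI held 14.0 CPM of Ntrk2 against 28.0 in the 32714 cells without one (median depths 12580 and 8035.5 UMIs). These sums pool the libraries, and the means over libraries were 18.8 ± 13.3 and 28.2 ± 10.7 CPM.

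Ngfr, the p75 receptor gene, was sparse: 1406 UMIs in 1053 cells, 90.2% of them in fibroblasts. Its fibroblast level was 0.631, 2.93 and 8.85 CPM (lowest, median, highest), above VSMCs in 15 of 16 libraries. VSMCs held 18 Ngfr UMIs in 7 cells, of which 16 came from 1 Smad3SmKO library of 18 weeks, 15 of them in 4 cells that also met a pericyte gate (Vtn, Higd1b and Kcnj8). The highest pooled level of Ngfr was in 122 Schwann-gated cells at 92.6 CPM, against 13.6 in 182 pericyte-gated cells. Sort1, the sortilin gene, was by contrast higher in VSMCs than in fibroblasts. It was at 29.5 ± 13.0 CPM in VSMCs (10.9, 25.9 and 66.4) and 4.51 ± 1.73 in fibroblasts (1.76, 4.39 and 7.15). VSMCs were higher in 16 of 16 libraries, while fibroblasts and leukocytes (4.38 ± 1.97) could not be ordered, 9 libraries against 7. VSMCs held 57.8% of all Sort1 UMIs. The pooled level of Sort1 was not particular to VSMCs, at 34.6 CPM in Schwann-gated cells, 26.4 in pericyte-gated cells and 25.3 in VSMCs.

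**Figure D1:**
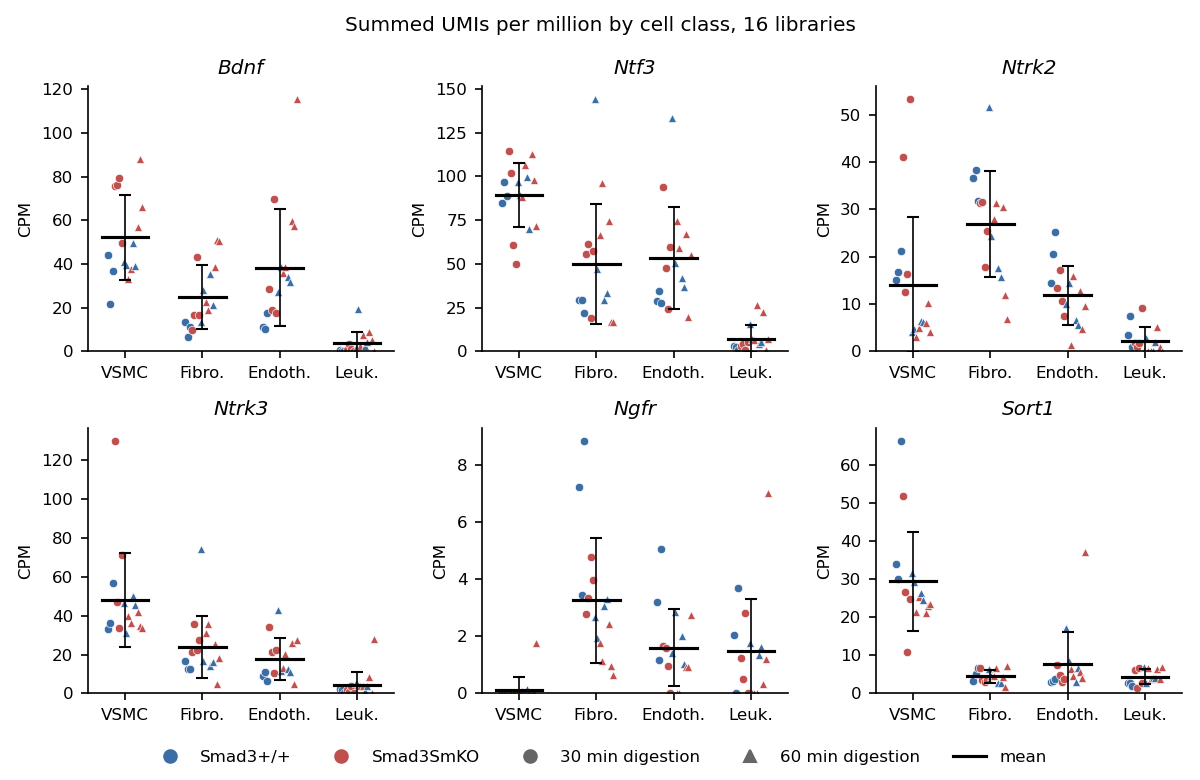
Level of each member (CPM of the UMIs summed per library and cell class, linear axis) in VSMCs, fibroblasts, endothelium and leukocytes, with 1 point per library, the mean as a bar and the SD as whiskers cut at 0. Bdnf, Ntf3, Ntrk3 and Sort1 were highest in VSMCs, whereas Ntrk2 and Ngfr were highest in fibroblasts.

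Genes whose level moved most like a member over the 64 class-by-library sums were found by Pearson's r of log2(CPM + 10) among 13065 genes. Class differences and library depth are shared by these points, so r is a description. For Bdnf they were Serpine2 (r = 0.89), Cyb5r3 (0.87), Hspb1, Atp8b1 and Arid5b (0.86 each). Within the 16 VSMC sums alone, Arid5b kept r = 0.88 while Serpine2 had 0.23. Ntf3 was closest to Cped1 (0.93), Wfdc1 and Nbeal1 (0.92 each), and Ntrk3 to Wfdc1 and Thrb (0.91 each) and Col4a6 (0.90). Wfdc1 was thus named for both the ligand and its receptor over the 64 sums. Within the 16 VSMC sums alone it had r = 0.19 with Ntf3 and 0.20 with Ntrk3, while Thrb kept 0.76 with Ntrk3. Ntrk2 was closest to Ehbp1 (0.86), Art4 and Dnm3os (0.83 each), Ngfr to Apod (0.75) and Ptk7 (0.71), and Sort1 to Dgkb and Grip2 (0.94 each) and Slc38a11 (0.93).

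In VSMCs, the question of the design was which transcripts depend on Smad3 and when. At 18 weeks post-deletion Bdnf stood at 44.3, 21.7, 36.7, 49.5 and 39.2 CPM in the 5 Smad3+/+ libraries. In the 7 Smad3SmKO libraries it stood at 75.7, 76.0, 79.3, 49.8, 57.0, 87.9 and 66.0 CPM. Every Smad3SmKO library was above every control, though replicate 4 of Smad3SmKO (49.8, from 14 UMIs in 22 cells) barely cleared replicate 4 of Smad3+/+ (49.5). Means were 38.3 ± 10.5 (n = 5) and 70.2 ± 13.4 (n = 7), a fitted log2 fold change of 0.98 (SE 0.13), and in the 4 batches with both genotypes the log2 ratio was 0.81 to 1.20. These values chose the member, so they are given without a test. Across all genes 0.0786% of 8905 had every Smad3SmKO library higher and 0.101% every one lower. In the edgeR fit 5 of 11852 genes (0.0422%) passed the threshold of an adjusted p under 0.05, 0.0253% higher and 0.0169% lower. Bdnf is among the 5 by the choice of members, and nothing is read from that. The other 4, named after their values were seen, were GFP (9.12), Prph (2.59), Pmepa1 (-0.98) and Heyl (-1.36). At a fixed depth of 2000 UMIs a cell, 7.30% of Smad3+/+ VSMCs and 11.1% of Smad3SmKO VSMCs held a Bdnf UMI (26.4% and 36.8% unthinned).

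GFP was at 0 UMIs in all 5 Smad3+/+ libraries of 18 weeks and was found in the 3 Smad3SmKO libraries with the tracer label. Without the 4 libraries that went against the tracer label the 18-week controls averaged 34.3 ± 11.5 CPM of Bdnf (n = 3) and its log2 fold change was 0.88 (SE 0.20), in a fit where edgeR called 0 genes. Bdnf was higher in Smad3SmKO within both digestion times, 34.3 ± 11.5 (n = 3) against 70.2 ± 13.7 (n = 4) at 30 min and 44.3 ± 7.27 (n = 2) against 70.3 ± 15.9 (n = 3) at 60 min. Pericyte markers, all 5 detected, had a higher mean under the Smad3SmKO label in VSMC sums of 18 weeks, with overlap. Their summed level was 143 to 430 CPM in Smad3+/+ (mean 273) and 230 to 1365 in Smad3SmKO (mean 668). At 10 weeks the means had the other order, 535 CPM in Smad3+/+ and 419 in Smad3SmKO. Pericyte-gated cells held 32.1 CPM of Bdnf in their pooled sum, below the VSMC mean of either genotype, and the part of these cells in the difference was not tested.

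The other members did not separate the genotypes at 18 weeks. Ntf3 was at 84.9, 96.8, 89.0, 99.4 and 70.0 CPM in Smad3+/+ and between 49.8 and 115 in Smad3SmKO, with a log2 fold change of 0.00 (SE 0.21). Ntrk3 ranged from 33.0 to 56.5 CPM in Smad3+/+ and from 33.5 to 130 in Smad3SmKO (0.32, SE 0.21), and its highest value came from replicate 1 of Smad3SmKO, with 71.1 next. The direction of Ntrk3 turned at 60 min alone (-0.32, SE 0.25). Ntrk2 ranged from 6.16 to 21.2 and from 4.11 to 53.3 CPM (0.76, SE 0.28). Sort1 was at 34.0, 30.1, 66.4, 26.5 and 24.5 CPM in Smad3+/+ and between 10.9 and 51.9 in Smad3SmKO (-0.36, SE 0.20). In the 4 shared batches Sort1 was lower in Smad3SmKO each time, by 0.15 to 0.86 on the log2 scale, yet the groups overlapped. Without the libraries against the tracer label Ntf3 was at -0.21, Ntrk2 at 0.71, Ntrk3 at 0.71 and Sort1 at -0.60. Ngfr was too sparse in VSMCs to pass the filter on low counts, which the other 5 members passed.

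At 10 weeks post-deletion the Bdnf difference was not seen. The 2 Smad3+/+ libraries were at 40.8 and 39.7 CPM and the 2 Smad3SmKO libraries at 33.2 and 37.8, both just below the controls. The log2 fold change was -0.16 (SE 0.17, 95% interval -0.52 to 0.20, adjusted p = 1.00 by edgeR's quasi-likelihood test), and 14.6% of genes had both Smad3SmKO libraries lower. Sort1 was likewise below both controls (31.7 and 29.3 against 21.4 and 25.3 CPM), with a log2 fold change of -0.37 (SE 0.24). Ntf3 (0.09), Ntrk2 (-0.16) and Ntrk3 (-0.01) were close to 0. Of 11852 genes 0 were called by edgeR at 10 weeks (0%), 220 had an unadjusted p under 0.05 and DESeq2 called 1. Both Smad3SmKO libraries of 10 weeks are among those that went against the tracer label, so no 10-week comparison remains without them. Whether the Bdnf difference itself changed between 10 and 18 weeks was not tested.

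**Figure D2:**
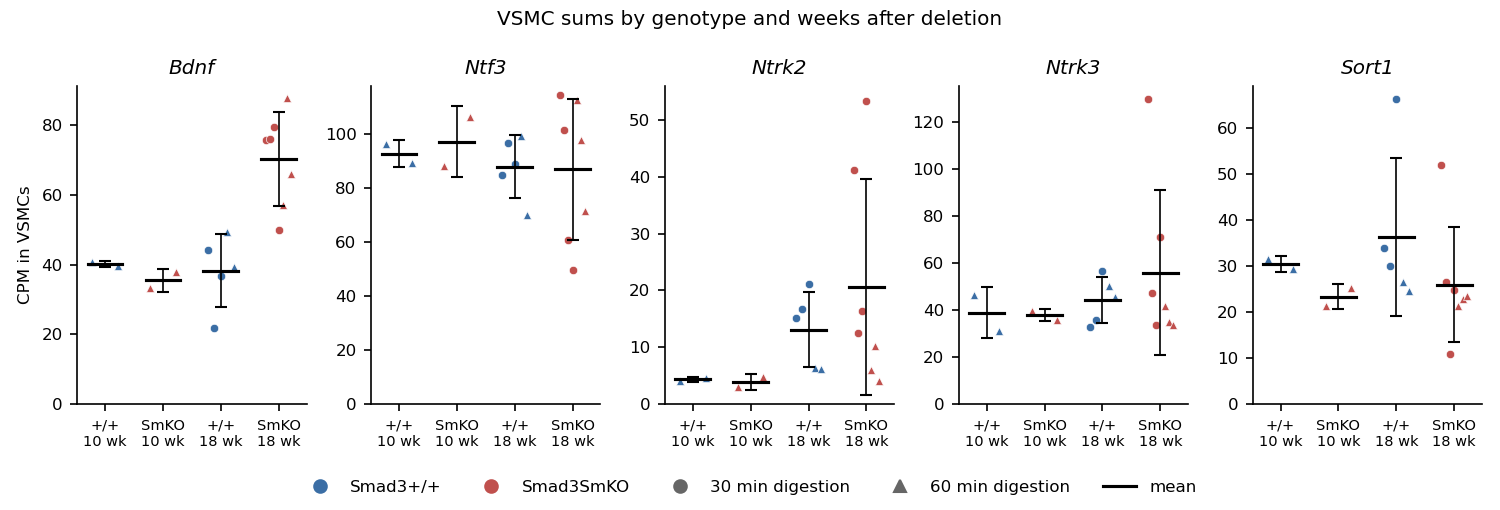
CPM of 5 members in VSMC sums by genotype and weeks post-deletion, with 1 point per library (circles 30 min, triangles 60 min of digestion), the mean as a bar and the SD as whiskers. The 7 Smad3SmKO libraries of 18 weeks held 49.8 to 87.9 CPM of Bdnf, above the 5 controls at 21.7 to 49.5, while the groups overlapped for the other 4 genes at that time.

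Genes of the pathway around the members were read from 7 lists. In VSMCs at 18 weeks edgeR called 0 genes of any list, and at most 2 of a list had an unadjusted p under 0.05, over 4 tested genes of the neurotrophin family and co-receptors, 17 Trk adaptors, 9 p75 adaptors, 8 proneurotrophin proteases and inhibitors, 14 transcription factors of Bdnf, 3 of the GDNF family and 12 immediate early and dissociation genes. The median log2 fold change of the Bdnf transcription factors was 0.12 and that of the immediate early genes -0.11, beside -0.01 over all genes. Among the best expressed, Sorl1, a sortilin relative, was at 0.04, Kidins220, a scaffold of Trk receptors, at -0.05, the adaptors Ptpn11 and Grb2 at -0.02 and -0.01, and Rhoa and Arhgdia at -0.13 and -0.04. The proneurotrophin convertase Furin was at -0.21, and Usf2 and Mef2c, which encode factors that bind Bdnf promoters, at 0.29 each. Nrtn, a GDNF family ligand, was at -0.64 (SE 0.23, adjusted p = 0.969). None of the lists had a call in fibroblasts at 18 weeks, or in either class at 10 weeks.

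Myh11 does not drive the Cre in fibroblasts, and their genotype comparison was tested. The members were proposed with their pattern in these cells known, so the test gives no independent support for a difference. At 18 weeks Bdnf was at 13.4, 6.70, 11.4, 35.3 and 21.4 CPM in Smad3+/+ fibroblasts and at 9.64, 16.8, 43.0, 16.4, 38.9, 51.1 and 50.7 CPM in Smad3SmKO. The groups overlapped, with 4 of 7 Smad3SmKO libraries above all controls, and the share of all genes with such a partial separation was not counted. Full separation, which Bdnf did not reach, is a stricter measure. Over all genes 0.0248% had every Smad3SmKO library higher and 0.00828% every one lower. Means were 17.6 ± 11.2 (n = 5) and 32.4 ± 17.6 (n = 7), a log2 fold change of 0.85 (SE 0.34, 95% interval 0.11 to 1.59). The unadjusted p from edgeR was 0.0283 and the adjusted p 1.00, in a fit that called 0 of 14626 genes (0%), with 363 at an unadjusted p under 0.05 and 3 called by DESeq2. Without the 4 libraries against the tracer label it was 0.80 (SE 0.45). The 6 VSMC markers, all detected, also differed in the fibroblast sums, at 546 to 1764 CPM summed in Smad3+/+ (mean 1209) and 518 to 11590 in Smad3SmKO (mean 3367), and their part in the Bdnf values was not tested. Ngfr was 7.24, 3.44, 8.85, 3.07 and 3.30 CPM in Smad3+/+ and 2.80, 3.34, 4.79, 3.97, 2.42, 0.964 and 0.631 in Smad3SmKO. It was lower than all controls in 4 of 7 libraries, again a partial separation without a count over all genes. Its log2 fold change was -1.0 (SE 0.34, 95% interval -1.75 to -0.26), with an edgeR adjusted p of 1.00, and -0.77 (SE 0.42) without those 4 libraries. Ntf3 (0.44), Ntrk3 (0.29), Ntrk2 (-0.41) and Sort1 (-0.28) had intervals that spanned 0. At 10 weeks no member of the fibroblast sums passed the threshold, and Bdnf was at -0.03 (SE 0.51) with 0 genes called by edgeR, 119 at an unadjusted p under 0.05 and 3 called by DESeq2.

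VSMCs were next split by markers that the study placed along the aorta. Notch3/Enpep cells, held to be enriched in the root and proximal ascending aorta, had at least 2 UMIs of Notch3 and Enpep and more of them than of Ptprz1 and Tes (541 cells), and Ptprz1/Tes cells, enriched more distally, the reverse (4605 cells). In 14 libraries with at least 10 cells of each, Bdnf was at 0, 12.9 and 57.8 CPM (lowest, median, highest) in Notch3/Enpep cells and at 39.3, 59.1 and 178 in Ptprz1/Tes cells. The 0 and the 178 both came from Smad3SmKO replicate 1 of 18 weeks, with 13 and 12 such cells. Bdnf was lower in Notch3/Enpep cells in 14 of 14 libraries, with means of 16.5 ± 14.2 and 75.3 ± 40.7 and a log2 difference of -1.72 (SE 0.22, adjusted p = 5.70e-07, edgeR with library as block). This fit called 23.7% of 8198 genes, 11.5% higher and 12.1% lower, and 3.42% of genes were lower in every library and 2.24% higher. Without the libraries against the tracer label the difference was -1.63 (SE 0.27).

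Ntrk2 and Sort1 ran the other way. Ntrk2 averaged 27.1 ± 34.3 CPM in Notch3/Enpep cells (0, 19.1 and 139) and 5.37 ± 3.27 in Ptprz1/Tes cells (1.74, 4.67 and 13.3), a log2 difference of 1.78 (SE 0.30, adjusted p = 3.49e-05, edgeR), and was higher in 12 of 14 libraries. The 139 came from 13 cells of Smad3SmKO replicate 1 of 18 weeks. Sort1 averaged 42.3 ± 21.8 against 22.1 ± 5.92 CPM, a difference of 0.82 (SE 0.15, adjusted p = 8.30e-05, edgeR), higher in 13 of 14. Without the libraries against the tracer label Ntrk2 was at 1.89 (adjusted p = 0.000287) and Sort1 at 0.80 (adjusted p = 0.00338) in the edgeR fit. Bdnf and its receptor gene were highest in different subsets of VSMCs. Ntf3 was lower in Notch3/Enpep cells in 11 of 14 libraries (75.7 ± 25.6 against 98.2 ± 24.9 CPM, -0.37, SE 0.11, adjusted p = 0.0112, edgeR), but not past the threshold without the libraries against the tracer label (-0.29, adjusted p = 0.146). Ntrk3 was at the edge of the threshold (34.3 ± 11.5 against 48.8 ± 33.9 CPM, -0.34, SE 0.12, adjusted p = 0.0487, edgeR) and lost the call when most single libraries, or the pericyte-gated cells, were left out. Ngfr was not tested.

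**Figure D3:**
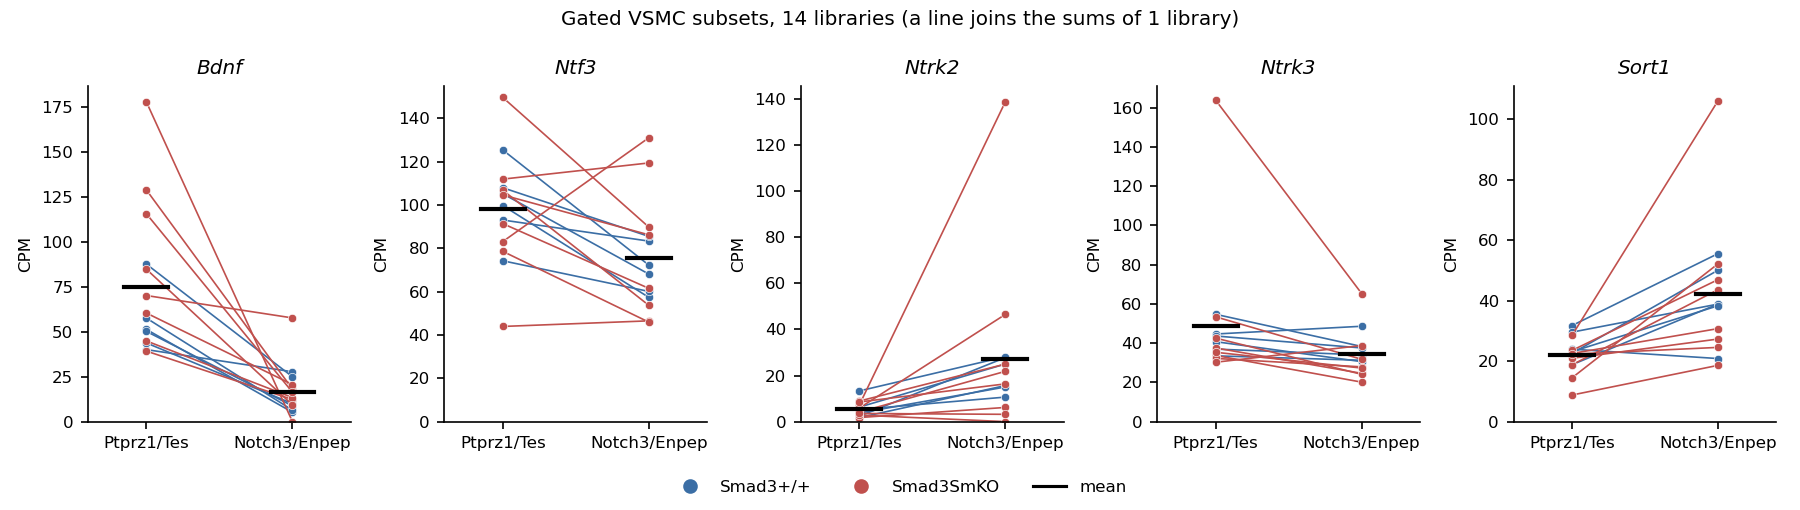
CPM of 5 members in Ptprz1/Tes and Notch3/Enpep VSMCs of 14 libraries (linear axes), a line joining the 2 sums of a library and a bar marking the mean. Bdnf fell from a mean of 75.3 to 16.5 CPM and was lower in all 14 libraries, whereas Ntrk2 and Sort1 were higher in Notch3/Enpep cells in 12 and 13 libraries.

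Of the family and co-receptor list, Sorl1 (-0.34) and Kidins220 (-0.37) fell in Notch3/Enpep cells. Pcsk5, a proprotein convertase, fell from 15.4 to 3.99 CPM (-1.79, SE 0.25), Nrtn fell by 1.25, and Bex3, a p75 adaptor, by 0.71. The docking protein gene Gab1 (0.75) and the factors Bhlhe40 (1.38) and Mef2c (0.41) rose. In the same cells all 12 immediate early and dissociation genes were above 0 and 11 were called higher, where 11.5% of all genes were called higher. Their median was 1.24 beside -0.02 over all genes. The pericyte list summed to 31.3 to 2751 CPM in Notch3/Enpep cells (mean 694) and to at most 796 in Ptprz1/Tes cells (mean 425). With pericyte-gated cells left out, an alternative chosen after seeing the data, Bdnf was at -1.63, Ntrk2 at 1.75 and Sort1 at 0.83. The part of the early genes and of the pericyte markers in these differences was not tested.

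The share of Notch3/Enpep cells varied from 1.45% to 62.5% of VSMCs between libraries, and its mean was 28.3% (5.83% to 62.5%) in Smad3+/+ and 18.4% (5.02% to 50.0%) in Smad3SmKO at 18 weeks. Its ranges overlapped between genotypes, and its part in the Bdnf difference was not tested. The share differed more by digestion, at 11.5% to 62.5% after 30 min and 5.02% to 14.97% after 60 min at 18 weeks, and was 1.45% to 3.87% at 10 weeks. Within Ptprz1/Tes cells alone Bdnf was at 59.9 ± 19.4 CPM in Smad3+/+ (43.8 to 87.7, n = 4) and 106 ± 43.9 in Smad3SmKO (60.5 to 178, n = 6), and the groups overlapped. The 178 came from 12 cells of Smad3SmKO replicate 1, and the 60.5 from 868 cells of replicate 5. In the Notch3/Enpep cells Bdnf was at 12.3 ± 7.33 (n = 5) and 22.5 ± 18.9 (n = 7), with 2 batches higher and 2 lower.

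Digestion time was compared over the 12 libraries of 18 weeks. Ntrk2 in VSMCs was at 12.6 to 53.3 CPM (median 16.8, n = 7) after 30 min and 4.11, 6.16, 6.35, 6.08 and 10.2 after 60 min. The groups did not overlap (2.11% of genes were lower in the same way and 0.696% higher), with means of 25.2 ± 15.7 and 6.59 ± 2.24 and a log2 difference of -1.60 (SE 0.31, adjusted p = 0.0101, edgeR). That fit called 372 of 10400 genes, 3.58% (1.85% higher and 1.73% lower), and of the 5 members tested only Ntrk2. The 10-week libraries, all of 60 min and of batch 4, were at 2.97 to 4.85 CPM of Ntrk2. The Notch3/Enpep cells, which held more Ntrk2, were also a larger share of VSMCs after 30 min. Within Notch3/Enpep cells Ntrk2 was at 53.0 ± 43.8 CPM (n = 7) after 30 min and 13.4 ± 6.97 (n = 5) after 60 min. These groups did not overlap, but the share of all genes separated in these sums was not counted. The smallest 30-min sum came from 10 cells. Within Ptprz1/Tes cells Ntrk2 was at 8.29 ± 3.04 (n = 5) and 5.02 ± 2.05 (n = 5), with overlap. Digestion time was constant within a batch, so time and batch cannot be told apart. At 18 weeks the tracer label coincided with 60 min, so it cannot be told apart from time and batch either. The 2 Smad3+/+ libraries of 60 min, both of batch 6, held 0 GFP UMIs and were at 6.35 and 6.16 CPM of Ntrk2. Without the libraries against the label the difference was -1.79 (SE 0.45, adjusted p = 0.111), in a fit with 31 calls.

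In fibroblasts Bdnf was higher after 60 min, 6.70 to 43.0 CPM (median 13.4, n = 7) at 30 min against 21.4 to 51.1 (median 38.9, n = 5). The groups overlapped through 1 Smad3SmKO library of 30 min at 43.0. The log2 difference was 1.44 (SE 0.33, adjusted p = 0.0486, edgeR), in a fit that called 276 of 14558 genes, 1.9% (1.28% higher and 0.611% lower). Without the libraries against the tracer label it was 1.31 (SE 0.45, adjusted p = 0.291). VSMC markers in the fibroblast sums were at a mean of 1531 CPM after 30 min (518 to 3312) and 3780 after 60 min (1060 to 11590), and their part in this difference was not tested. The call was lost in 10 of 12 fits that left out 1 library (adjusted p over all alternatives 0.00167 to 0.291). Ngfr was at 4.92 ± 2.27 and 2.08 ± 1.22 CPM (-1.04, SE 0.32, adjusted p = 0.0982), and Ntrk2 at 30.4 ± 6.93 and 16.5 ± 8.82 (-0.65, SE 0.28, adjusted p = 0.233), neither past the threshold by edgeR (DESeq2 gave Ngfr an adjusted p of 0.0217). Without Smad3SmKO replicate 5, Ntrk2 was at -1.05 (SE 0.20) with an edgeR adjusted p of 0.0256. Without the libraries against the tracer label Ngfr was at -1.21 and Ntrk2 at -0.46. For both genes the groups overlapped, and 6.58% of genes were lower without overlap and 0.422% higher. Of the lists, Furin (0.79), Plau, a protease that activates plasmin (2.42), and the stress factor Atf3 (1.42) rose in fibroblasts and Zfp110, which encodes a p75-binding zinc-finger protein, fell by 0.73. In VSMCs Nrtn rose (0.92) and the heat-shock gene Hspa1a fell (by 1.67). All 12 early and dissociation genes were above 0 in fibroblasts, 1 of them called, with a median of 0.53, beside 50.2% of all genes above 0. In VSMCs 11 of the 12 were below 0, and their summed level was 7082 CPM after 30 min and 4914 after 60 min.

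**Figure D4:**
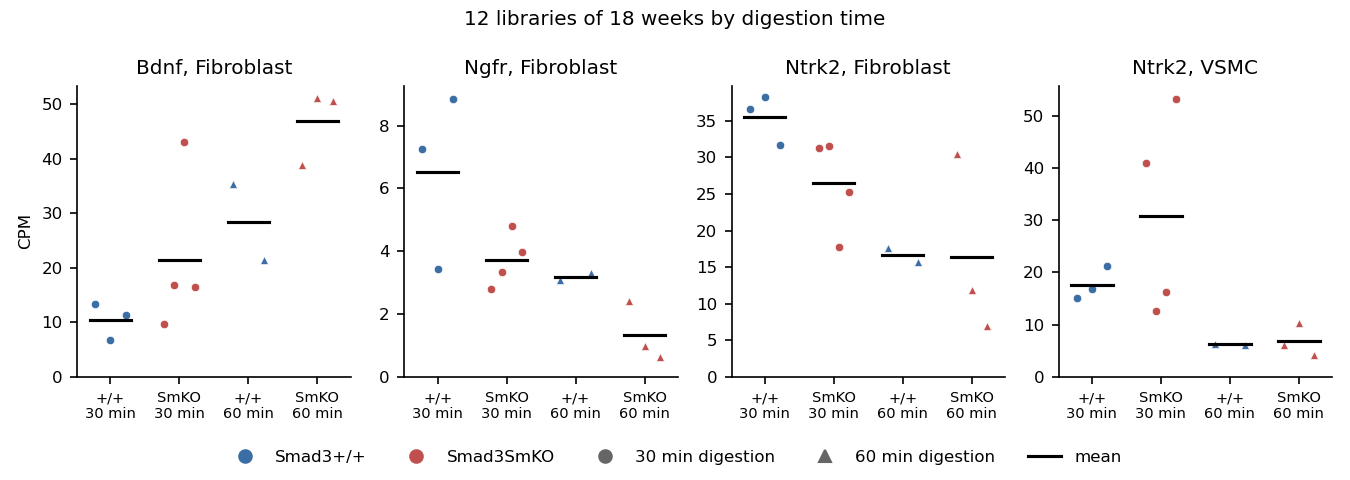
CPM of Bdnf, Ngfr and Ntrk2 in fibroblast sums and of Ntrk2 in VSMC sums of the 12 libraries of 18 weeks, by genotype and digestion time, with 1 point per library and a bar at the mean. Ntrk2 in VSMCs was at 12.6 CPM or more in each 30-min library and at 10.2 or less in each 60-min library, while Bdnf in fibroblasts was higher on average after 60 min.

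The fibroblast mix moved with digestion as well. Fibroblasts were divided, after the data had been seen, by genes that led fibroblast groups, and cells of the Has1 gate were 7.12% of fibroblasts at 30 min and 26.9% at 60 min, those of the Coch gate 16.3% and 4.96%. The mean of Bdnf was higher at 60 min in each of the 8 gates and in fibroblasts of no gate, and these differences were not tested. It was 16.8 ± 6.39 and 45.6 ± 19.2 CPM in the Has1 gate, 5.55 and 14.5 in the Hsd11b1 gate, 46.4 ± 17.7 and 71.1 ± 19.1 in the Tnfrsf11b gate and 32.4 and 45.3 in cells of no gate. Ntrk2 had no common direction, at 53.1 ± 22.6 and 43.9 ± 13.3 in the Coch gate, 34.0 and 29.6 in the Hsd11b1 gate, 32.5 and 32.6 in the Cnmd gate and 3.95 and 12.8 in the Foxd1 gate.

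The fibroblast gate with the highest mean was shared by some members and differed for others. It was Tnfrsf11b for Bdnf, Ntf3 and Ntrk3. Bdnf was highest in cells gated on Tnfrsf11b, which encodes osteoprotegerin, at a mean of 54.9 CPM, above the Has1 gate (32.9) in 14 of 16 libraries and above the Cnmd gate, lowest at 3.54, in 15 of 15. Ntf3 and Ntrk3 shared their high gates, Tnfrsf11b (86.5 CPM of Ntf3, 46.2 of Ntrk3) and Hsd11b1 (83.2 and 40.4). The Has1 gate held 8.93 CPM of Ntf3 and 3.05 of Ntrk3, below both in 16 of 16 libraries. Cells with an Ntf3 UMI held 53.2 CPM of Ntrk3 and the fibroblasts without one 11.2, while in VSMCs the values were 42.0 and 40.4. Fibroblasts with an Ntf3 UMI were deeper, with a median of 9388.5 UMIs against 8148 in those without.

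Ntrk2 was highest in the Coch gate (44.1 CPM), followed by Hsd11b1 (36.3) and Cnmd (35.0), and these 3 were not ordered across libraries, Coch being above Hsd11b1 in 9 of 15. Ngfr was at 8.39 CPM in the Foxd1 gate and 6.18 in the Coch gate, the latter above the Tnfrsf11b gate (0.811) in 15 of 15 libraries. The Tnfrsf11b gate, with the highest mean of Bdnf, was thus among the low gates for Ngfr. Its place beside the Dpp4 gate was not settled. The Dpp4 gate held 3 Ngfr UMIs in all and was lower in the pooled sum (0.482 against 0.941 CPM). Sort1 ran from 3.46 to 6.80 CPM between gates and was higher in the Coch gate (6.68) than in the Has1 gate (3.50) in 13 of 15 libraries. The Tnfrsf11b gate made up 7.85% ± 4.53 of fibroblasts in Smad3+/+ (n = 5) and 14.8% ± 8.69 in Smad3SmKO (n = 7) at 18 weeks, and its part in the Bdnf values of whole fibroblast sums was not tested.

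**Figure D5:**
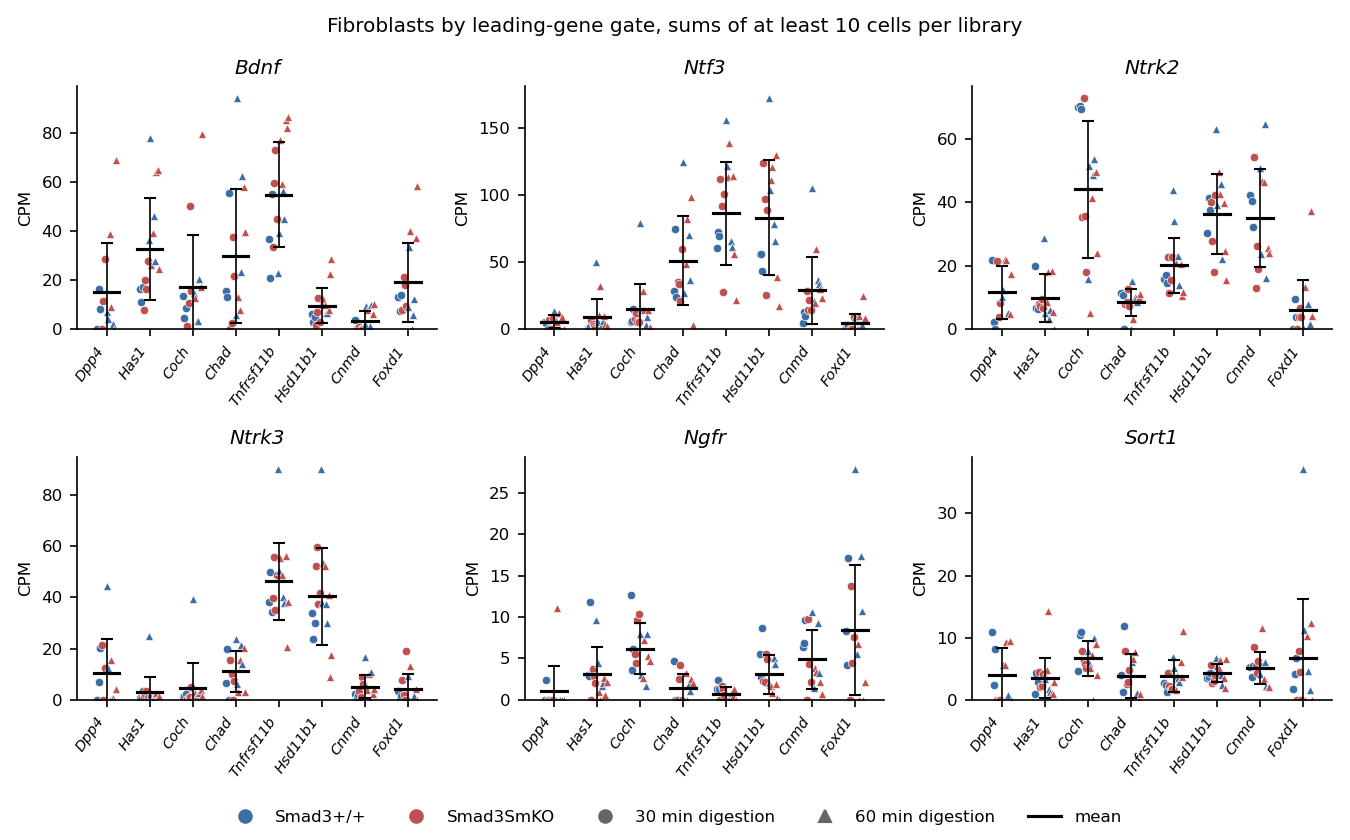
CPM of the 6 members in fibroblasts divided by 8 leading-gene gates, 1 point per library with at least 10 cells of the gate, the mean as a bar and the SD as whiskers cut at 0. Bdnf peaked in Tnfrsf11b cells (mean 54.9), Ntf3 and Ntrk3 in Tnfrsf11b and Hsd11b1 cells, Ntrk2 in Coch, Hsd11b1 and Cnmd cells, and Ngfr in Foxd1 and Coch cells.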

How the data were processed

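Single-cell libraries of 16 mouse aortas were analysed from the deposited, unnormalized UMI counts. To obtain these counts the authors aligned reads to mm10 plus a GFP sequence in Cell Ranger. The study's methods name version 6, while the header of the deposited matrices names another version. Members and gene lists were chosen with earlier results of these data known, so genotype p-values of members at either week are no independent support. Named genes were all members, list genes past the threshold, and the 2 best expressed genes of each list; some genes that this rule picks are not reported here.

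Kept cells had over 600 and under 6000 genes, over 2000 and under 50000 UMIs and under 25% mitochondrial UMIs. Doublets were handled by these limits and by an alternative without cells of more than 1 gate. UMIs were summed per library and gate (at least 10 cells), because cells are not replicates, and CPM used the sum's total, so fewer transcripts of a gene and more of all others cannot be told apart. edgeR 4.0.16 (R 4.3.3, limma 3.58.1) fitted quasi-likelihood models on TMM-scaled counts after filterByExpr, with Benjamini-Hochberg adjustment over all genes at 0.05. The genotype fit took batch and Smad3SmKO at 10 and at 18 weeks over 16 libraries, the digestion fit genotype and time over 12, the VSMC subset fit library as block over 14. SE is the log2 fold change divided by the root of F. DESeq2 1.42.0 was an alternative. Each library was 1 mouse, so p-values of the genotype fit measure the spread between mice within batches. In the digestion fit, mice of a batch shared their time and batch was no term. Its p-values therefore treat mice of a batch as independent and do not measure the spread between batches. In the subset fit p-values measure how the difference within a library varied over libraries. Intervals of shares cover counting error only. The code was tested on simulated data. Sums were made in pandas 2.3.3 with numpy 2.4.6 and scipy 1.17.1 under Python 3.11.15, and plots in matplotlib 3.10.9. Promoter windows were RefSeq's, with 4 of 6 members matched.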

Additional observations from a re-analysis of the deposited data

Results flagged for a closer look

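By Dixon's test, 11 of 46 groups of 4 to 10 libraries held a sample that stood apart, where chance flags about 1 in 20 groups. In VSMC sums of Smad3SmKO at 18 weeks, replicate 1 was high for Ntrk3 (130 CPM) and for Sort1 (51.9 CPM), from 59 cells. Sort1 stood at 106 CPM in its 13 Notch3/Enpep cells and Ntrk3 at 164 CPM in its 12 Ptprz1/Tes cells. The subset cells are part of the VSMCs, so these flags are not separate, and counting error is large in such small sums. Replicate 3 of Smad3+/+ at 18 weeks was high for Sort1 in VSMCs (66.4 CPM, 48 cells) and in Notch3/Enpep cells (85.8 CPM, 30 cells). Replicate 1 of Smad3+/+ at 18 weeks was high for Bdnf in Notch3/Enpep cells (24.99 CPM, 32 cells).

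Ngfr gave 4 of the groups, each because the other libraries were at or near 0. Replicate 7 of Smad3SmKO held 1.78 CPM in VSMCs and 12.7 CPM in Notch3/Enpep cells, and replicate 4 of Smad3+/+ held 0.163 and 2.13 CPM.

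The Bdnf log2 fold change of Smad3SmKO against Smad3+/+ in VSMCs was 0.98 at 18 weeks, with every Smad3SmKO library above every control, and -0.16 at 10 weeks, with both below. The difference between the weeks was not tested, and at 10 weeks 14.6% of genes had both libraries below both controls.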

How the results depend on the processing

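Of 1041 recomputed values, 938 were marked as the same as in the main setting. That mark did not follow the sign of Ntf3 in VSMCs at 18 weeks. Its main log2 fold change was 0.0017, and the alternatives lay on both sides of it, from -0.21 to 0.35. Bdnf in VSMCs at 18 weeks stayed between 0.85 and 1.13, and in the VSMC subsets between -2.28 and -1.60. Genes called in VSMCs at 10 weeks were 1 by DESeq2 and 51 without a filter (0 to 1 leaving out a library), at 18 weeks 8 by DESeq2, 134 without a filter, 3 with stricter gates, 0 at 60 min alone and 0 without the libraries against the tracer label (2 to 6). DESeq2 called 3 in fibroblasts at either week, 653 for VSMC digestion (1041 without a filter, 31 without the libraries against the label, 146 to 410 leaving out a library) and 1192 for fibroblast digestion (26 without those libraries, 52 to 430). The Smad3+/+ subset fit called 1126. Leaving out the libraries against the label, chosen after seeing the data, also ended the calls of Ntrk2 in VSMC digestion (-1.79), Bdnf in fibroblast digestion (1.31), Ntf3 (-0.29) and Ntrk3 (-0.29) in the subsets, and turned fibroblast digestion of Ntf3 to -0.22 and Sort1 to 0.24. Fibroblast digestion of Bdnf lost its call in single-gate cells (1.42) and in Smad3+/+ alone (1.62), and ran from 1.27 to 1.79 leaving out a library. The subset call of Ntrk3 was lost with size factors (-0.33), DESeq2 (-0.34), all barcodes (-0.31), single-gate cells (-0.33), stricter gates (-0.39), Smad3+/+ alone (-0.22) and no pericyte-gated cells (-0.25), with -0.48 to -0.27 leaving out a library. Signs turned, all without a call, for VSMCs at 10 weeks in Ntrk2 (stricter gates 0.22) and Ntrk3 (DESeq2 9.38e-05, all barcodes 0.00554, single-gate 0.00945), at 18 weeks in Ntrk3 at 60 min alone (-0.32), for fibroblasts at 18 weeks in Ntf3 (-0.75) and Ntrk3 (-1.52) at 60 min alone and Sort1 without batch (0.071), for VSMC digestion in Smad3+/+ alone in Ntf3 (-0.030) and Ntrk3 (0.33), and for fibroblast digestion in Ntf3 (all barcodes -0.023) and Ntrk3 (Smad3+/+ alone 0.28). Leaving out a library gave, for VSMCs at 10 weeks, Ntf3 -0.064 to 0.23, Ntrk2 -0.52 to 0.21 and Ntrk3 -0.14 to 0.18. For fibroblasts at 10 weeks it gave Bdnf -0.51 to 0.71, Ntf3 -0.76 to 0.73, Ntrk2 -0.73 to 0.21, Ntrk3 -1.09 to 0.95 and Sort1 -0.25 to 0.28. For digestion it gave Ntrk3 -0.33 to 0.052 in VSMCs, and in fibroblasts Ntf3 -0.40 to 0.25, Ntrk3 -0.38 to 0.079 and Sort1 -0.46 to 0.015. Thinned cells left VSMCs above fibroblasts for Ntrk2 in 1 library in place of 2. The cause of these changes was not tested. No paired analysis was possible because the labels carry no replicate numbers that could pair mice of different groups; the subset fit compared cells within a library, and the genotype fit held batch as a term. Depth limits Ngfr in VSMCs (18 UMIs) and libraries with few VSMCs (22 cells at the lowest).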
